A study of Mus musculus with 20 samples.

Results

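The lysosomal genes Lipa, Cd68, Lamp1, Lamp2, Ctsb, Ctsd, Ctsl and Hexa were described in mouse fibroblasts with and without HSF1, the transcription factor that turns on chaperone genes in heated cells. Lipa was chosen by its measured values on these arrays, and the other 7 genes were named beside it as lysosomal genes when earlier results were known. All 8 had a probe that lists 1 gene, and all 8 were among the 10625 genes tested, of 10843 genes with such a probe. RNA from HSF1 -/- fibroblasts (KO) and from HSF1 +/+ fibroblasts (WT) was hybridised in the Cy5 channel of 20 two-colour arrays. The Cy3 channel held 1 common pool of mRNA from mouse fibroblasts that had or had not been heat shocked for 1 h. Unheated cells (0 h) of each genotype went on 3 arrays. Cells heat shocked for 0.5, 1, 2, 3, 4, 6 or 8 h went on a single array per genotype and time. The labels describe the material as a cell line and give no culture or clone numbers, so genotype cannot be told apart from other differences between the 2 cell sources, and p-values measure only the spread between these arrays.

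The lysosome is the acidic organelle in which cells break down proteins, lipids, sugars and nucleic acids delivered by endocytosis and autophagy. Lipa encodes lysosomal acid lipase, which frees cholesterol and fatty acids from cholesteryl esters and triglycerides taken up with lipoproteins, and its inherited loss causes Wolman disease. Hexa encodes the alpha subunit of beta-hexosaminidase, which degrades ganglioside. Ctsb, Ctsd and Ctsl encode cathepsins B, D and L, the abundant endopeptidases of the organelle. Lamp1 and Lamp2 encode the main glycoproteins of the lysosomal membrane, and Cd68 encodes a related membrane glycoprotein best known from macrophages. Many lysosomal genes carry E-box motifs bound by TFEB, a transcription factor that can raise them together.

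Each value is a log2 ratio of the sample to the pool, shifted so that every array has a median of 0. A value of 0 is thus the median probe of an array, and 1 is a ratio of 2 to that level. The sources used here do not name the base of the logarithm. Base 10 was excluded because the largest absolute value, 10.2, exceeds the 4.82 that 16-bit signals allow. If the base were e, the folds printed here would be too small. The direction was taken from the dyes in the labels, and Hspa1a, an inducible heat shock chaperone, averaged -2.60 in KO and 3.35 in WT arrays of 3 to 8 h. Hsf1 itself was not analysed here. Arrays held 39037 to 42220 values, and their number limits the precision.

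For the tests, 0.5, 1 and 2 h made up an early window with 3 arrays of each genotype, and 3, 4, 6 and 8 h a late window with 4. Arrays of a window are not replicates of 1 time, so their spread includes change over time. Genes were tested with limma, with Benjamini-Hochberg adjustment over all 10625 genes and a threshold of 0.05. Values of the 8 genes are given as a description, since the choice of Lipa used these arrays. Calls among them are given only beside the share of all genes called. The share of all genes whose groups do not overlap was not counted, so overlap is only described. In RNA from whole cultures, fewer cells that carry a transcript and less of it per cell cannot be told apart.

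The promoters of Lipa, of Lamp1 and of Grn, the lysosomal gene that carries the next results, are shown to compare 1 spelling of the E-box. Capitals mark the palindromic E-box CACGTG, which was searched for over the 250 bases before and 50 bases after each gene start, 5′ to 3′ on the gene's strand. They are from RefSeq on GRCm38.p6, at chr19:34527425-34527724 (minus strand) for Lipa, chr8:13158911-13159210 (plus strand) for Lamp1 and chr11:102430257-102430556 (plus strand) for Grn.
Lipa: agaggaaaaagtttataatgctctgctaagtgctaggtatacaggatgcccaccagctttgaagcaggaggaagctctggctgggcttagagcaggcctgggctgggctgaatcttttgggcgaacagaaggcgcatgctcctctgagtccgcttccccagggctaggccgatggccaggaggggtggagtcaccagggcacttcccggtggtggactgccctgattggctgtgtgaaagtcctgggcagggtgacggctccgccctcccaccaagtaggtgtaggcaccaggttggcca
Lamp1: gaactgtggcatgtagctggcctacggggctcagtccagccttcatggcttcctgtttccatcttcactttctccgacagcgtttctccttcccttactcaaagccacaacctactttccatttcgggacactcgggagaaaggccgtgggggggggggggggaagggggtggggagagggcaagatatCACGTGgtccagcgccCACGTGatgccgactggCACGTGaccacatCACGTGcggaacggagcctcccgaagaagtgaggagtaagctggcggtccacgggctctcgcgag
Grn: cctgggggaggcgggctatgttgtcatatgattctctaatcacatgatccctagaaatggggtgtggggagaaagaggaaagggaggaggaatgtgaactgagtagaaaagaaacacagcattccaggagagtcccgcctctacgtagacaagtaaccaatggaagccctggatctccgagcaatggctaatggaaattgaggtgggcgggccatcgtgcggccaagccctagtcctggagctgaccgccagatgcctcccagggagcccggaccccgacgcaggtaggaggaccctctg
The letters CACGTG occurred 4 times in the Lamp1 window, with first bases at -61, -45, -28 and -15 from the start. They occurred 2 times for Ctsd and 1 time for Ctsl, and 0 times for Lipa, Cd68, Lamp2, Hexa and Grn. Of 32851 mouse promoters of the same length, 7.15% held at least 1 copy. A pair of heat shock element units, spelled GAANNTTC or TTCNNGAA, was in none of these 8 windows and in 7.86% and 8.52% of all promoters. Other spellings of the E-box were not searched for, so a window with 0 copies of CACGTG can still hold one. These matches describe letters in the windows and nothing more. Ctsb has no sequence shown here.

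Lipa lay on chromosome 19, from 34492316 to 34527474 of GRCm38.p6, and was read by 1 probe. Without heat shock its log2 ratio was 1.89, 1.33 and 1.37 on the 3 KO arrays, against 0.56, 0.44 and 0.18 on the 3 WT arrays. Every KO array was above every WT array. The means were 1.53 ± 0.31 in KO and 0.39 ± 0.20 in WT (SD, n = 3 each), a difference of 1.13 ± 0.19 (SE), or 2.19-fold, which ranked Lipa 263rd of 10625 genes counted from the highest.

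Under heat shock the KO values were 1.42, 0.90, 0.92, 0.22, 0.49, 0.31 and 0.25 at 0.5, 1, 2, 3, 4, 6 and 8 h. The WT values at the same times were 0.51, 0.48, 0.75, 0.34, 0.60, 0.64 and 0.70. KO was above WT at the 3 early times and below WT at the 4 late times. Over all 10 WT arrays Lipa stayed between 0.18 and 0.75, while the 10 KO arrays spanned 0.22 to 1.89.

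In order, the Lipa means were 1.53 in KO at 0 h, 1.08 ± 0.29 in early KO (SD, n = 3), 0.58 ± 0.14 in early WT (SD, n = 3), 0.57 ± 0.16 in late WT (SD, n = 4), 0.39 in WT at 0 h and 0.32 ± 0.12 in late KO (SD, n = 4). The early KO arrays were all above the early WT arrays. All other neighbours in that order overlapped. Late KO minus KO at 0 h was -1.21 ± 0.17 (SE), 2.31-fold lower, the 111th lowest of 10625 genes. Late WT minus WT at 0 h was 0.17 ± 0.17 (SE).

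**Figure D1:**
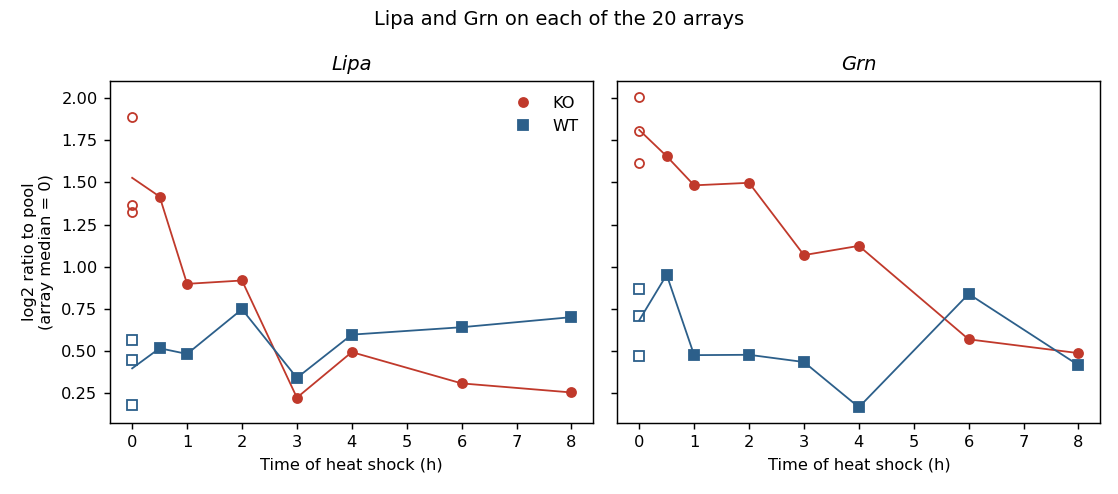
Log2 ratio to the pool (y, array median at 0) against hours of heat shock (x) for Lipa and for Grn, KO in red circles and WT in blue squares; open symbols are the 3 arrays at 0 h, filled symbols are single arrays, and lines start at the 0 h mean. Lipa in KO is above WT through 2 h and lies between 0.22 and 0.49 from 3 h on, while WT stays between 0.18 and 0.75.

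The other lysosomal enzymes of the set differed less than Lipa between the genotypes at 0 h. Hexa averaged 0.44 ± 0.18 in KO and 0.48 ± 0.24 in WT at 0 h (SD, n = 3 each), and these groups overlapped. Its 2 probes differed by 0.13 and -0.21 (KO minus WT).

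Ctsb had 0.70, 0.73 and 0.59 in KO at 0 h, against 0.40, 0.30 and 0.46 in WT. The groups did not overlap, but the difference, 0.29 ± 0.20 (SE), did not pass the threshold. Over the heated arrays Ctsb was lower in KO at 6 of 7 times, with values of 0.17, 0.40, 0.85, 0.55, 0.03, 0.03 and 0.25 in KO, against 0.99, 0.64, 0.45, 1.07, 0.65, 1.04 and 0.71 in WT. The heated difference was -0.47 ± 0.13 (SE). This value rests on 7 probes that disagree: their KO minus WT differences at 0 h ran from -1.02 to 1.33. Of those probes, 1 read -4.80 and -5.10 on the KO arrays of 0.5 and 1 h and had no value at 2 h. With only probes that have a value on all 20 arrays the heated difference was -0.19, and with the median of probes it was -0.23.

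Ctsl, on chromosome 13, averaged 1.11 ± 0.15 in KO and 1.11 ± 0.24 in WT at 0 h (SD, n = 3 each). Its late values in KO were 0.97, 0.56, 0.41 and 0.34 at 3, 4, 6 and 8 h, against 1.15, 0.84, 1.29 and 1.04 in WT. KO was lower at all 4 late times, although the ranges overlapped. Late KO minus KO at 0 h was -0.54 ± 0.19 (SE) for Ctsl. All 7 Ctsl probes lay below 0 in that comparison.

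Ctsd, on chromosome 7, averaged 0.36 ± 0.04 in KO and 0.22 ± 0.11 in WT at 0 h (SD, n = 3 each). The lowest KO array and the highest WT array were both at 0.31, and the difference of means was 0.14 ± 0.15 (SE). Its 5 probes differed by -0.28 to 0.83, and with 1 probe per gene Ctsd was at -0.21. Over the heated arrays the Ctsd difference was -0.03 ± 0.10 (SE), and KO was higher at 3 of 7 times.

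Of the membrane glycoproteins, Lamp2 was higher and Cd68 lower in KO, and Lamp1 gave no steady value. Lamp2, on the X chromosome, had 1.91, 1.42 and 1.66 in KO at 0 h, against 1.12, 0.99 and 1.08 in WT, with no overlap. In heated arrays it had 1.60, 1.86, 1.88, 1.43, 1.59, 1.01 and 1.01 in KO, against 0.92, 1.19, 1.06, 1.08, 1.02, 0.79 and 1.00 in WT. KO was higher at 7 of 7 times, by 0.01 at 8 h and by up to 0.82.

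Lamp2 differed by 0.60 ± 0.18 at 0 h and by 0.48 ± 0.12 over the heated arrays (SE). Its 4 probes gave 0.53 to 0.64 at 0 h and 0.30 to 0.71 over the heated arrays, all higher in KO.

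Cd68 was lower in KO. At 0 h it had 0.99, 0.38 and 0.78 in KO, against 1.87, 1.39 and 1.38 in WT, with no overlap. In heated arrays the values were 0.79, 0.80, 0.68, 0.78, 0.25, 0.10 and 0.23 in KO, against 1.21, 0.80, 0.80, 1.47, 0.85, 1.10 and 0.94 in WT. KO was lower at 7 of 7 times, with a gap of 0.004 at 1 h. The Cd68 differences were -0.83 ± 0.22 at 0 h and -0.51 ± 0.14 over the heated arrays (SE), from 1 probe.

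Lamp1 averaged -0.75 ± 1.53 in KO and -0.39 ± 0.47 in WT at 0 h (SD, n = 3 each). Of its 4 probes, 1 read -7.21 on KO 0 h replicate 3, and the probe differences at 0 h ran from -1.74 to 0.42. The Lamp1 spread allows no ordering of the groups.

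**Figure D2:**
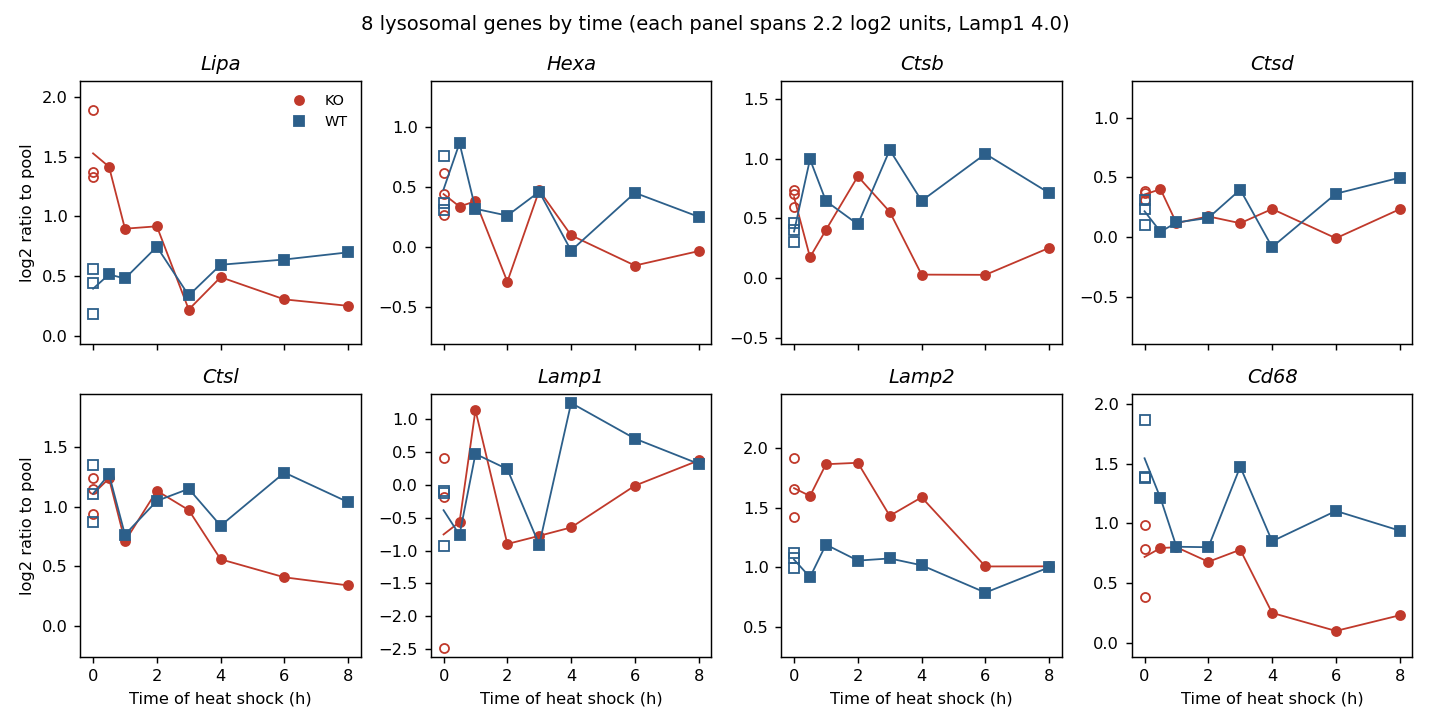
Log2 ratio to the pool (y) against hours of heat shock (x) for the 8 genes, KO in red circles and WT in blue squares, with open symbols for the 3 arrays at 0 h. Lamp2 is higher and Cd68 lower in KO at all 7 heated times, and Ctsl is lower in KO from 3 h on. Lamp1 has a wider axis because its KO arrays at 0 h span -2.48 to 0.41.

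**Figure D3:**
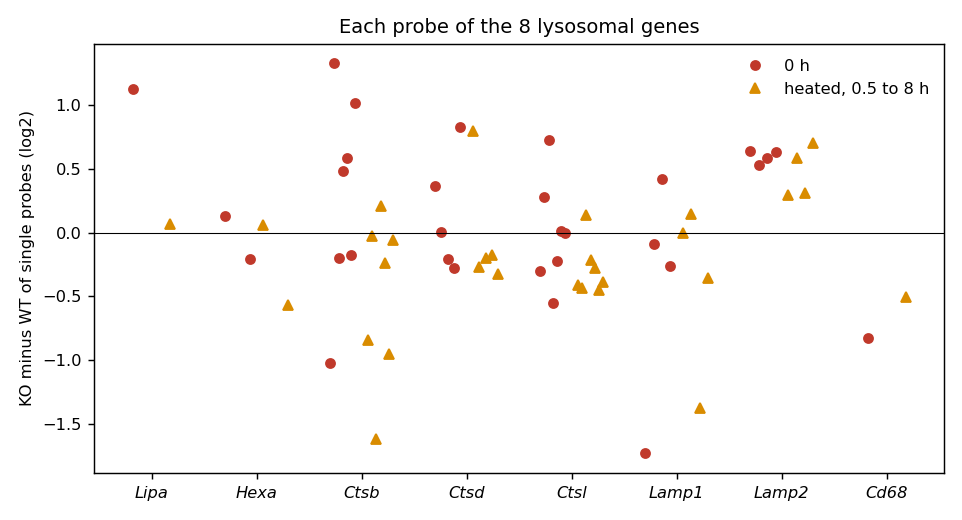
KO minus WT (y, log2) for each single probe of the 8 genes (x), red circles at 0 h and orange triangles over the heated arrays. The 4 Lamp2 probes lie together, whereas the 7 Ctsb probes at 0 h run from -1.02 to 1.33.

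At 0 h, 4 of the 8 genes were higher and 4 lower in KO, with a median difference of 0.07, against 0.05 over all genes tested. Without Lipa the median of the other 7 was 0.00. Lipa passed the threshold as higher and Cd68 as lower, where 6.64% of all genes passed. Lipa was chosen by its values on these arrays, so its call is no independent evidence, however often it was kept. The Lipa call was lost under 1 of 9 alternatives, with only the 6 arrays of 0 h fitted, and the Cd68 call under 4 of 9, with values of -0.83 to -0.57. Over the heated arrays 2 of 8 were higher and 6 lower, where 52.3% of all genes were higher. The median was -0.27 against 0.02 over all genes. Lamp2 passed as higher, and Cd68 and Ctsb as lower, where 10.3% of all genes passed. The Lamp2 call was kept with any of the 14 heated arrays left out, and lost with 1 probe per gene, at 0.30. The Cd68 call was lost with 8 of the 14 left out, and with KO replicate 2, KO replicate 3 or WT replicate 1 left out at 0 h, and the Ctsb call with 7 of the 14.

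In the late window most of the set was below its 0 h level in KO and about evenly split in WT. In late KO, 7 of 8 genes were lower than at 0 h, where 48.1% of all genes were higher. The median difference of the 8 was -0.39, or -0.38 without Lipa, against -0.02 over all genes. Of these only Lipa, chosen by its values on these arrays, passed, where 10.7% of all genes passed. Lamp1 was the exception in direction, at 0.49 ± 0.64 (SE). Its 1 probe with values on all 20 arrays was higher than at 0 h by 0.95 in late KO and by 0.72 in late WT. With only probes of that kind Lamp1 passed in both, and with 1 probe per gene it passed in KO. In late WT, 4 of 8 were higher and 4 lower than at 0 h, with a median of 0.02 and 0 of 8 past the threshold, where 7.27% of all genes passed.

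In the early window, 0 of 8 passed in KO, where 0% of all genes passed, and 0 of 8 in WT, where 0.0376% passed. At an unadjusted p under 0.05 limma counted 793 genes in KO and 1202 in WT. The median differences of the 8 genes were -0.10 in KO and -0.004 in WT. The KO response minus the WT response had a median of -0.01 over the 8 genes in the early window, where 0% of all genes passed and 889 had an unadjusted p under 0.05 in limma, and of -0.30 in the late window, where 0.0941% passed. In the late window Lipa was at -1.38 ± 0.24 and Ctsb at -0.94 ± 0.26 (SE), and Lipa passed. Ctsb was at -0.02 with 1 probe per gene. With any 1 of the 14 arrays of that comparison left out Lipa no longer passed, and its value was -1.48 to -1.20. Of 10 other settings, 6 kept the Lipa call. These responses share their 0 h arrays with the difference between genotypes at 0 h.

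**Figure D4:**
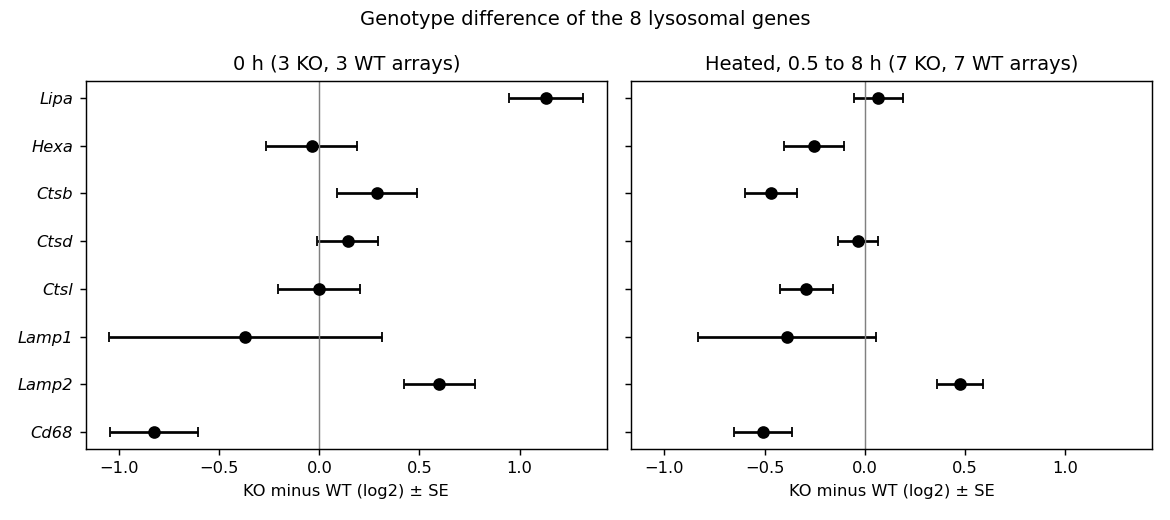
KO minus WT (x, log2) of the 8 genes (y) at 0 h and over the 7 heated times; points are differences of the limma fit and bars their SE. Lipa is at 1.13 at 0 h and at 0.07 over the heated arrays, Lamp2 is at 0.60 and 0.48, and Cd68 at -0.83 and -0.51.

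Beside the 8 genes, 5 lists of other lysosomal genes by textbook function were described: proteases with their inhibitors, glycosidases and sulfatases, enzymes of lipid and nucleic acid breakdown, membrane and sorting proteins, and the vacuolar proton pump. Like the 8 genes, these lists were chosen with earlier results of these data known, so they are no independent set. They hold 114 genes, of which 84 were tested. At 0 h, 4 of the 84 were higher and 0 lower in KO, which is 4.76% beside 6.64% of all genes. Of the 84, 57 were above 0 and 27 below, where 54.7% of all genes were above 0. Their median was 0.13 against 0.05 over all genes.

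Of the 4 genes, the one nearest to Lipa in size was Grn, progranulin, a secreted protein that is delivered to lysosomes and whose loss causes a lysosomal storage disease. Grn had 1.81, 1.62 and 2.01 in KO at 0 h, against 0.47, 0.87 and 0.70 in WT, with no overlap. The Grn difference was 1.13 ± 0.21 (SE), 2.19-fold, with an adjusted p of 0.00316 (limma). Cst3, cystatin C, a secreted inhibitor of cysteine cathepsins, was higher by 0.86 ± 0.22 (SE, adjusted p = 0.0236, limma). Fuca1, which removes fucose from glycoproteins, was higher by 0.80 ± 0.19 (SE, adjusted p = 0.0146, limma). Gaa, the acid glucosidase that degrades glycogen and is lost in Pompe disease, was higher by 0.67 ± 0.18 (SE, adjusted p = 0.0332, limma). The Grn call was kept with any 0 h array left out. The Cst3 call was lost without any of the 3 KO arrays or without WT replicate 2 (adjusted p up to 0.0887, limma). Those of Fuca1 and Gaa were lost without KO replicate 1, KO replicate 3 or WT replicate 3 (adjusted p up to 0.0758 and 0.152, limma). With only the 6 arrays of 0 h fitted all 4 calls were lost, at adjusted p-values of 0.0561 to 0.248 (limma), and with 1 probe per gene Fuca1 was at 1.37.

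By list, 1 of 15 proteases and inhibitors passed at 0 h, the inhibitor Cst3. Of the other lists, 2 of 15 glycosidases and sulfatases and 0 of 16 lipid and nucleic acid enzymes passed. The counts were 1 of 24 for membrane and sorting genes and 0 of 14 for pump subunits. The 16 lipid and nucleic acid enzymes, the list closest to Lipa by function, had 14 members above 0 and a median of 0.26. At an unadjusted p under 0.05, 1 of the 16 passed in limma, beside 2213 of all 10625 genes.

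Over the heated arrays, 3 of the 84 were higher and 2 lower in KO, which is 5.95% beside 10.3% of all genes, and the median was 0.00. Cst3 was higher by 1.06 ± 0.14 (SE, adjusted p = 8.89e-05, limma). Grn was higher by 0.59 ± 0.14 (SE, adjusted p = 0.0106, limma), with 1.66, 1.48, 1.50, 1.07, 1.12, 0.57 and 0.48 in KO, against 0.95, 0.47, 0.48, 0.43, 0.16, 0.84 and 0.41 in WT. Only at 6 h was Grn lower in KO. Gaa was higher by 0.46 ± 0.12 (SE, adjusted p = 0.0186, limma). Ctso, cathepsin O, was lower, at -0.66 ± 0.13 (SE, adjusted p = 0.00265, limma), and Atp6v1b2, a subunit of the proton pump, was lower, at -0.41 ± 0.11 (SE, adjusted p = 0.0248, limma). With 1 of the 14 arrays left out the first 4 calls were kept, and that of Atp6v1b2 was lost in 4 cases (adjusted p up to 0.0631, limma). The Gaa call was also lost with time as a block, and that of Atp6v1b2 under 4 of 9 other settings. With 1 probe per gene Ctso was at -1.17.

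The 0 h and heated comparisons share no array. Of the lysosomal genes, 3 passed in both with the same sign (Grn, Cst3 and Gaa), which is 75% of those at 0 h and 60% of those over the heated arrays. Of all genes, 452 did so, which is 64.1% of those at 0 h and 41.5% of those over the heated arrays. Lipa was not among them, at 0.07 ± 0.12 (SE) over the heated arrays. That mean joins 3 early times with Lipa higher in KO and 4 late times with it lower.

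**Figure D5:**
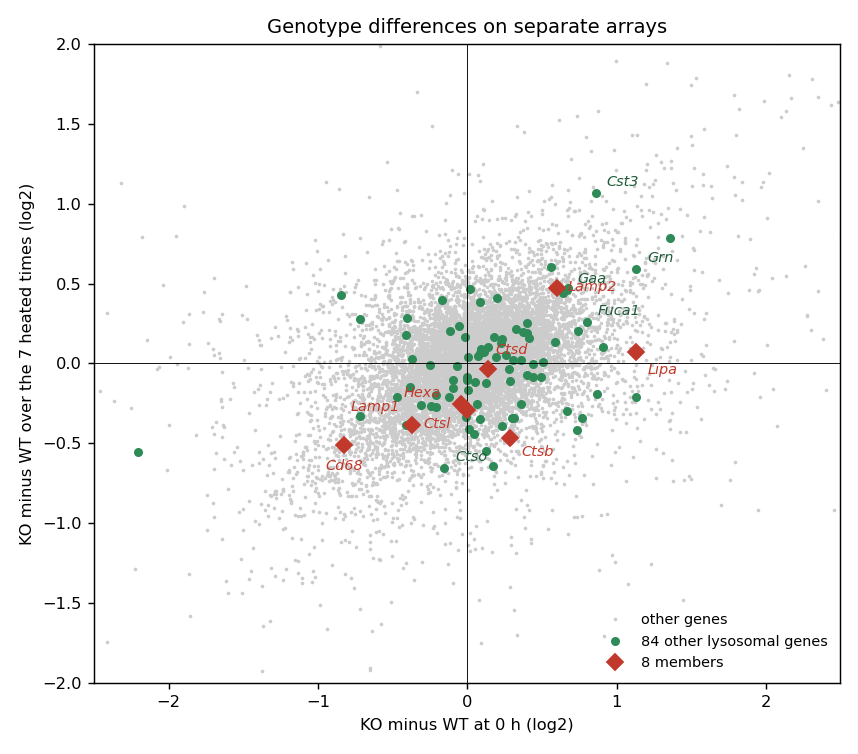
KO minus WT at 0 h (x, log2) against KO minus WT over the 7 heated times (y, log2) for each gene tested, with other genes in grey, the 84 other lysosomal genes in green and the 8 described genes as red diamonds; 40 genes lie outside the axes. Grn and Cst3 lie high on both axes, Lipa only on the x axis, and Cd68 low on both.

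In late KO minus KO at 0 h, 2 of the 84 rose and 7 fell, which is 10.7%, the same as the 10.7% of all genes. The median was -0.17, against -0.02 over all genes, with 20 above 0 and 64 below, where 48.1% of all genes were above 0. The genes that follow for the late window were chosen after their values were seen. Grn fell by 1.00 ± 0.20 (SE, adjusted p = 0.0042, limma). Ctsa, the serine carboxypeptidase that protects lysosomal sialidase, fell by 1.01 ± 0.24 (SE, adjusted p = 0.0129, limma), and without KO 0 h replicate 1 its adjusted p was 0.0726 (limma). With 1 probe per gene Ctsa was at -0.45 (adjusted p = 0.259, limma). At 0 h Ctsa had 1.16 to 1.49 in KO and 0.31 to 0.50 in WT, with no overlap but no call. In the late window its means were 0.28 in KO and 0.71 in WT, and the ranges overlapped. The other falls were those of Arsb at -0.76, Atp6ap1 at -0.73, Cd63 at -0.62, Scpep1 at -0.59 and Scarb2 at -0.49. Without a call at 0 h, Scpep1 averaged 1.21 in KO and 0.80 in WT, Arsb 1.21 and 0.77, and Atp6ap1 1.54 and 1.47. Cd63, at 1.22 and 1.46, and Scarb2, at 0.10 and 0.41, were lower in KO at 0 h. Atp6v0a2, a membrane subunit of the proton pump, rose by 1.53 ± 0.20 (SE, adjusted p = 0.000498, limma), and Atp6v0a1 rose by 0.52 ± 0.16 (SE, adjusted p = 0.0401, limma). With each of the 7 arrays left out in turn, the calls of Grn, Arsb and Atp6v0a2 were kept each time, that of Atp6ap1 was lost without KO 0 h replicate 1, and those of Cd63 and Atp6v0a1 were lost 6 times, of Scpep1 4 times and of Scarb2 2 times. With 1 probe per gene Arsb was at -1.35 and Atp6v0a1 at 0.91, and the calls of Cd63 and Scarb2 were lost.

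In late WT minus WT at 0 h, Atp6v0a2 rose by 1.10 ± 0.23 (SE, adjusted p = 0.0109, limma, with no value on WT 0 h replicate 1), and Scarb2, a receptor that carries glucocerebrosidase to lysosomes, fell by 0.47 ± 0.12 (SE, adjusted p = 0.0312, limma) and lost its call with 3 of 7 arrays left out in turn. With only the contrasted arrays fitted both calls were lost. Of the alternatives that keep all arrays of the comparison, 8 of 9 kept the call of Atp6v0a2 and 3 of 10 that of Scarb2. These 2 of 84 are 2.38%, beside 7.27% of all genes, and the median was -0.02. In the early window 0 of 84 passed in either genotype in limma. At an unadjusted p under 0.05 limma counted 7 of them in KO and 6 in WT, beside 793 and 1202 of all genes. The KO response minus the WT response passed for 0 of 84 in both windows in limma. Limma gave an unadjusted p under 0.05 for 7 in the early and 10 in the late window, beside 889 and 926 of all genes. The late medians of that difference were -0.21 over the 84 genes and -0.02 over all genes.

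Lists of autophagy and lysosome gene regulators and of sterol uptake, storage and export were described the same way. Of 21 tested genes of autophagy and lysosome gene regulation, 1 was higher in KO at 0 h and over the heated arrays: Gabarap, a ubiquitin-like protein of autophagosome membranes, by 0.57 ± 0.16 (SE, adjusted p = 0.0359, limma) and 0.72 ± 0.10 (SE, adjusted p = 0.000173, limma). In both comparisons that is 4.76% of the list, beside 6.64% and 10.3% of all genes. At 0 h, 18 of the 21 were above 0, with a median of 0.25. Map1lc3b, of the same protein family as Gabarap, fell by 0.48 in late KO. It was the only call of that list there, which is 4.76% beside 10.7% of all genes. Of 12 tested genes of sterol uptake, storage and export, 2 were higher in KO at 0 h, which is 16.7% beside 6.64% of all genes, and 2 were higher and 1 lower over the heated arrays, which is 25% beside 10.3%. Abca1, the cholesterol exporter, was higher by 0.98 ± 0.23 (SE, adjusted p = 0.014, limma) and over the heated arrays by 0.50 ± 0.15 (SE, adjusted p = 0.0407, limma). Osbpl1a, an oxysterol-binding protein of late endosomes, was higher by 0.96 ± 0.19 (SE, adjusted p = 0.00474, limma) and by 0.53 ± 0.12 (SE, adjusted p = 0.0103, limma). In late KO Osbpl1a was at -0.72 against KO at 0 h (adjusted p = 0.0151, limma), the only call of its list there, 8.33% beside 10.7%. Plin2, a coat protein of lipid droplets, was lower over the heated arrays, at -0.61 ± 0.14 (SE, adjusted p = 0.00927, limma). The heated calls of Gabarap and Plin2 were kept with any array left out, whereas those at 0 h of Gabarap, Abca1 and Osbpl1a were lost with 4, 2 and 2 of the 6 arrays, and the heated calls of Abca1 and Osbpl1a with 10 and 4 of the 14. The late KO calls of Map1lc3b and Osbpl1a were lost with 4 and 2 of 7. That of Osbpl1a was kept under 7 of 10 alternatives that keep all arrays of the comparison, with values of -0.86 to -0.19. With only the contrasted arrays fitted, the 0 h calls of Gabarap, Abca1 and Osbpl1a were lost. With 1 probe per gene those of Gabarap at 0 h, Abca1 and Plin2 over the heated arrays and Map1lc3b in late KO were lost, and Osbpl1a was at 1.05 over the heated arrays. Abca1 was at 0.62 at 0 h, without a call, when probes with at least 1 value in each group were kept.

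The genes most like Lipa over the 20 arrays, by Pearson's r among the 9459 genes measured on all of them, were Cdk5rap3 at 0.90, Islr at 0.90, Ctps2 at 0.86, Nrbp2 at 0.86, Aplp2 at 0.85 and Glrx at 0.85. Islr averaged 1.28 in KO and -0.21 in WT at 0 h. After each group mean was subtracted the highest were Tm9sf3 at 0.81, Syn2 and Ogt at 0.80, Spata24 and Arglu1 at 0.77 and Paics at 0.77. None of these 12 genes is on the 5 lysosomal lists, which hold only 74 of the 9459 genes. The arrays share their pool and genotypes, so r describes these arrays only.

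Among the 7 other described genes, likeness to Lipa over the 20 arrays ran from -0.16 for Lamp1 and -0.10 for Cd68 to 0.42 for Ctsd and 0.66 for Lamp2. The r of Lamp2 was above that of 97.5% of the other genes measured on all arrays. That of Ctsd was above 86.1%, of Cd68 above 35.5% and of Lamp1 above 29.2%. After group means were subtracted the likeness to Lipa ran from -0.50 for Ctsb to 0.23 for Ctsd, and Lamp2 was at 0.13, above 60.9%. The pair most alike among all 8 was Cd68 and Hexa, at 0.68 over the arrays and 0.83 after group means were subtracted.

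Cd68 is also a macrophage marker, so markers of other cells were set beside it. Ratios to a fibroblast pool cannot show whether a marker is present. Of 17 macrophage markers 12 were tested, Ptprc, Cx3cr1, Mpeg1, Spi1 and Tyrobp not among them. Their median difference at 0 h was -0.02, and 1 was lower in KO: Fcgr1, at -1.13 ± 0.26 (SE, adjusted p = 0.0129, limma), or 0.0535 without KO replicate 2. That is 8.33% of the list, beside 6.64% of all genes. Fcgr1 was at -0.19 with 1 probe per gene (adjusted p = 0.723, limma) and passed under 6 of 9 alternatives that keep all arrays of the comparison. Over the heated arrays their median was 0.03, and 1 was lower: Itgam, at -1.32 ± 0.23 (SE, adjusted p = 0.000864, limma), which is 8.33% beside 10.3% of all genes. The median level of the 10 markers with a value on every array was -0.55 to -0.16 on KO arrays and -0.36 to 0.17 on WT arrays. Their part in the Cd68 difference was not tested.

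Of 12 tested fibroblast markers, 2 were higher and 1 lower in KO at 0 h, which is 25% beside 6.64% of all genes. Pdgfra, a growth factor receptor, was higher by 1.36 ± 0.20 (SE, adjusted p = 0.000434, limma), Col3a1, a collagen, was higher by 0.53 ± 0.14 (SE, adjusted p = 0.0265, limma), and Fn1, fibronectin, was lower, at -0.71 ± 0.20 (SE, adjusted p = 0.0351, limma). The 0 h call of Fn1 was lost with each of the 6 arrays left out and that of Col3a1 with 3 of them. Over the heated arrays Pdgfra and Col3a1 were again higher, and Fn1, Col1a2 and Col5a2 were lower, which makes 41.7% beside 10.3% of all genes. Col5a2 was at -0.55, but at 0.32 with 1 probe per gene, at -0.12 with values on all 20 arrays, at -0.10 without the WT array of 1 h and at -0.16 without that of 2 h, and its call was lost each time. The heated call of Col1a2 was lost with 9 of the 14 arrays left out. With 1 probe per gene Col3a1 was at 0.93 at 0 h and 0.87 over the heated arrays, Col1a2 was at -0.71, and the heated call of Fn1 was lost. With quantile normalization Fn1 was at -0.39 at 0 h, without a call. Of 6 epithelial and 4 endothelial markers tested, 0 passed in either comparison in limma. In each, 1 of each list had an unadjusted p under 0.05 in limma, beside 2213 of all genes at 0 h and 2382 heated.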

How the data were processed

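Per the labels, the Cy5 channel held the sample and the Cy3 channel the pool. The deposited values are log ratios of unstated base, treated here as log2. The authors' background correction, spot filters and normalization are not given in the sources used here. Missing values made up 3.28%. No spot brightness was used, so signal over background was not examined. Probes were named by the platform annotation: 21701 listed 1 gene, and others were left out.

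Each array was centred on its median. Probes with at least 2 values in each of 6 groups were kept, and a gene's value was the mean of its probes, each relative to its own mean. Models were fitted with limma 3.58.1 (R 4.3.3; lmFit, eBayes) over all 20 arrays, with two-sided tests and Benjamini-Hochberg adjustment per contrast. The script was tested on simulated data. The 0 h replicate numbers did not pair arrays (r of same-numbered deviations -0.02 to -0.01).

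The 8 genes and all lists were chosen with earlier results of these data known. Named genes were the 8, list genes past the threshold at 0 h or over the heated arrays, and those most like Lipa; genes of the late window were named after their values were seen. Alternatives were other centring, 1 probe per gene, other filters, blocks, contrasted arrays only and leaving out each array.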

Additional observations from a re-analysis of the deposited data

Results flagged for a closer look

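Lipa was flagged for its response to heat in the late window. The KO response minus the WT response was -1.384 on the log2 scale, and this difference of the responses passed the threshold in limma. The call was lost with any 1 of the 14 arrays of that comparison left out. Lipa was picked with these values known, so the call is no independent evidence. Among the 8 genes, 16 sets of 4 late arrays were examined for a single array far from the others, and 0 stood apart.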

How the results depend on the processing

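For the 8 genes, no called value changed sign under any alternative. Ctsb, at 0.29 and not called at 0 h, was at -1.02 with 1 probe per gene and passed there as lower in KO. Its heated call was kept under 4 of 9 alternatives that keep all arrays of the comparison. Of the list genes named, only Col5a2 changed the sign of a call, over the heated arrays, at 0.319 with 1 probe per gene against -0.554. With the replicate block the genes past the threshold were 12 in WT early (against 4) and 6 in the late response (against 10), and the lysosomal genes 4 in WT late (against 2). Fitting only the contrasted arrays left 109 genes and 0 lysosomal genes at 0 h (against 705 and 4), 164 and 0 in WT late (against 772 and 2) and 0 in WT early. Time as a block gave 3 lysosomal genes over the heated arrays (against 5), 0 genes in WT early and 0 in the late response. With 1 probe per gene the lysosomal genes were 8 at 0 h, 9 heated and 1 in WT late, and all genes 2 in WT early and 1 in the late response. Without centring they were 1 lysosomal gene in WT late, 1 gene in WT early and 0 in the late response. Quantile normalization gave 7 lysosomal genes at 0 h, 8 heated and 1 in WT late, with 462 genes in WT late and 2 in WT early. Scaling of width gave 8 lysosomal genes heated and 1 in WT late, with 371 genes in WT late and 0 in WT early. Genes with values on all 20 arrays gave 7 lysosomal genes at 0 h, 2 genes in WT early and 1 in the early response. A minimum of 1 value gave 8 genes in WT early, 1 in KO early and 1 in the early response. The median of probes, chosen after seeing the data, gave 0 in WT early.

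Higher against lower calls were 323 against 382 at 0 h, and 408 against 286 without centring, 376 against 232 with quantile normalization and 295 against 225 with width scaling. In WT late they were 382 against 390, and 336 against 222, 260 against 202 and 224 against 147 under those settings. In KO late they were 410 against 723, and 419 against 463 without centring.

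With 1 array left out, genes past the threshold ranged from 423 to 730 at 0 h, 811 to 1064 heated, 0 to 18 in WT early, 385 to 824 in WT late, 0 to 6 in KO early, 523 to 1100 in KO late, 0 to 5 in the early response and 0 to 6 in the late response. Lysosomal genes ranged from 1 to 5 at 0 h, 5 to 6 heated, 1 to 3 in WT late and 3 to 12 in KO late, and were 0 in the other comparisons. Without centring, the median over all genes came to 0.16 at 0 h, 0.19 in WT early, -0.12 in KO early and -0.31 in the early response. The cause was not tested.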
